A study of Homo sapiens with 6 samples.

Results

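Chemokines are small secreted proteins that draw leukocytes along a gradient through G protein-coupled receptors, and tumour cells of mesenchymal origin can release them without any immune cell present. The 10 chemokine genes described here are CXCL1, CXCL2, CXCL3, CXCL5, CXCL6, CXCL8, CXCL10, CCL2, CCL5 and CCL20. They were taken by symbol from a fixed list, and all 10 of 10 were found among the 20683 genes of the count files. The RNA came from HT-1080, an established human fibrosarcoma cell line. Of the 6 libraries, 3 came from dishes exposed for 24 h to the IRAK4 inhibitor SLV-8472-01, given in the labels as 5 mM, and 3 from dishes with 0.1% DMSO for the same time. The labels name no cytokine or Toll-like receptor ligand added to either group, so the levels are those of cells in serum-containing medium. The series calls the replicates biological, and what was separate between them is not given further, so the tests measure the spread between these libraries of 1 cell line.

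IRAK4 is a kinase recruited by the adaptor MYD88 to interleukin-1 and Toll-like receptors, and its signal reaches the transcription factor NF-kB and the MAP kinases. The CXC ligands CXCL1, CXCL2, CXCL3, CXCL5, CXCL6 and CXCL8 carry a glutamate-leucine-arginine motif before their first cysteines and are classic NF-kB targets. They attract neutrophils through CXCR2, and some of them also through CXCR1. CXCL10 and CCL5 can be induced by NF-kB as well, but also by interferons and by interferon regulatory factors. CXCL10 attracts activated T cells through CXCR3, and CCL5 attracts T cells and monocytes, through CCR1 among other receptors. CCL2 is the main attractant of monocytes through CCR2, and CCL20 attracts CCR6-bearing lymphocytes and dendritic cells.

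The promoter letters of the members were compared, with CXCL10 alone standing for the interferon-linked pair. A RefSeq promoter window, from 250 bases before to 50 after the annotated start in build GRCh38.p14, was matched by symbol for 8 of the 10 members, without CCL2 and CCL5. Of these windows 4 are printed 5′ to 3′ on the strand of the gene: CXCL8, the member with the most counts; CXCL3, the other well-counted ligand of the glutamate-leucine-arginine group; CXCL1, a close relative of CXCL3 with no count; and CXCL10, which was counted in the inhibitor libraries alone. Capitals mark letters that match any of 3 patterns searched on either strand. These were a kappa-B pattern (GGNNNTTCC, chosen because known kappa-B sites of this family fit it), an interferon-stimulated response element pattern (GAAANNGAAA) and an AP-1 pattern (TGANTCA).
CXCL8, chr4:73740319-73740618, plus strand: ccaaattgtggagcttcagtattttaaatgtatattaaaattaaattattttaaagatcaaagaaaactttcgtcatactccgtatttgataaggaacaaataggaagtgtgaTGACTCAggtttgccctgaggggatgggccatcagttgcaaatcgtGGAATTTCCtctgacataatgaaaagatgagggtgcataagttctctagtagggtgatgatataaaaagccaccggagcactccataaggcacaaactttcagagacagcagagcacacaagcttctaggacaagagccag
CXCL3, chr4:74038640-74038939, minus strand: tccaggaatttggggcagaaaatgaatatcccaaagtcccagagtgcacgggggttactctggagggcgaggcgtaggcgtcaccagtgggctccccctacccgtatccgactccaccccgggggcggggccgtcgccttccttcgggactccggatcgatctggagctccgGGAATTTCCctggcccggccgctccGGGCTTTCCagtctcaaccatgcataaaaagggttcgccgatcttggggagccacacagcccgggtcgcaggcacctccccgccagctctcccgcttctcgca
CXCL1, chr4:73869143-73869442, plus strand: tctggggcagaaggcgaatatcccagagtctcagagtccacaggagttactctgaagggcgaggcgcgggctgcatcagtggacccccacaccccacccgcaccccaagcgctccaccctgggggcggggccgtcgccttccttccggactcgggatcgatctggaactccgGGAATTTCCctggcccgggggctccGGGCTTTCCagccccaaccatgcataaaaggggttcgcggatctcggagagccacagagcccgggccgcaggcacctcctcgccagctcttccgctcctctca
CXCL10, chr4:76023448-76023747, minus strand: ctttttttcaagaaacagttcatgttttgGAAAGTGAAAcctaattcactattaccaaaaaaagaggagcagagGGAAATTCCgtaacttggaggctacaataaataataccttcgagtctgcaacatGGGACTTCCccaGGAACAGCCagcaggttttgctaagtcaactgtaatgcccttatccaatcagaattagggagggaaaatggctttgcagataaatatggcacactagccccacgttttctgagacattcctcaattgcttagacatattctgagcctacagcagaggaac

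The kappa-B pattern was present in 8 of the 8 matched windows, against 20.1% of 35116 RefSeq promoter windows of the same length. The pattern was chosen to fit known sites of this family, and some of these windows are close copies. That count is therefore a description and no test of enrichment. In CXCL1, CXCL2, CXCL3, CXCL5, CXCL6 and CXCL8 the letters were the same 9 bases, GGAATTTCC, starting between 91 and 77 bases before the start. CXCL1, CXCL2 and CXCL3 shared a further match, GGGCTTTCC, that began 53 bases before the start in each. CXCL10 had 3 kappa-B matches, at 176, 122 and 110 bases before the start. The first of them, GGAAATTCC, is GGAATTTCC read on the other strand. CXCL10 was also the single window with the interferon-stimulated response element pattern, GAAAGTGAAA, 221 bases before the start. That pattern occurs in 3.57% of all windows. The AP-1 pattern, found in 7.71% of all windows, occurred in CXCL8 alone, as TGACTCA at 137 bases before the start. CCL20 had 1 kappa-B match, at 79 bases before the start. No matches of different patterns overlapped. Such matches describe the letters and do not show that a factor was bound.

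**Figure D1:**
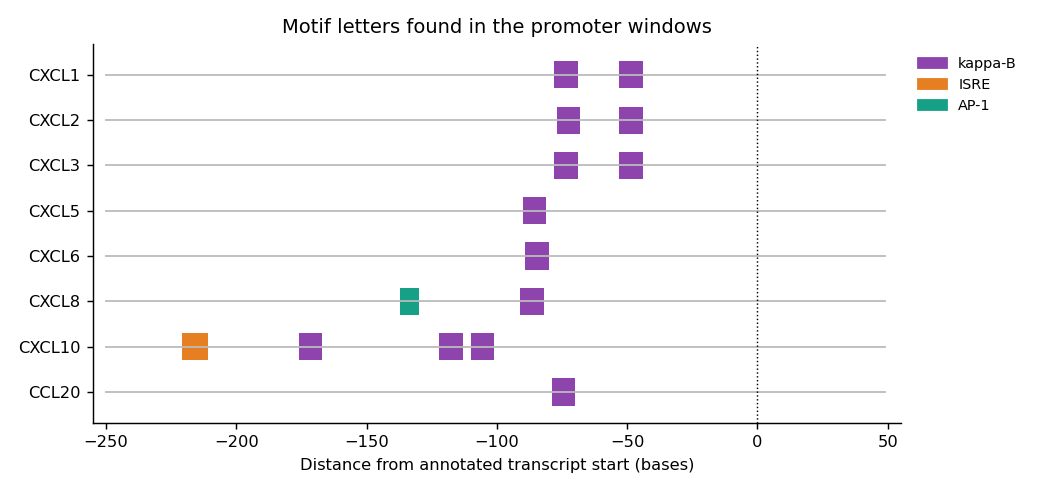
Positions of the pattern matches in the 8 promoter windows, as distance in bases from the annotated transcript start (dotted line); boxes are kappa-B, interferon-stimulated response element (ISRE) and AP-1 matches. All 8 windows have a kappa-B box, and CXCL10 alone has an ISRE box.

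The messenger RNAs also differed in AUUUA pentamers, the core of AU-rich elements that shorten the life of many cytokine messages. In the longest GENCODE protein-coding transcript of each gene, written in DNA letters as ATTTA, CXCL2 held 8.21 per kilobase, CXCL3 6.51, CXCL8 5.87, CCL20 4.77, CXCL1 4.56, CXCL5 4.33 and CXCL6 3.49. The median of 19669 protein-coding genes was 0.937 per kilobase, and 4.17% of these genes reached the density of CXCL6. CXCL10, with 1.7 per kilobase, and CCL2, with 1.35, lay nearer to that median, and the CCL5 transcript held 0.

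The library totals ranged from 9162281 to 13184553 counts. Read counts come from 1 short PCR product per gene in this panel, so a count is comparable between libraries for 1 gene, while differences between genes also carry the yield of each product. DMSO 3 stood apart: its median absolute log2 difference was 0.331 from DMSO 1 and 0.265 from DMSO 2, against 0.171 between those libraries and 0.137 to 0.148 among the inhibitor libraries. All pairs of replicates differed by more than counting noise (chi-square of 5.17 to 36.7 per degree of freedom). Of 8 mesenchymal markers VIM had 47213 to 84857 counts per library and FN1 2438 to 3706, whereas THY1 had 1 count in all. The others had fewer counts than FN1. COL5A1 had 45 to 126 counts per library, CD44 97 to 123, COL1A1 39 to 96, S100A4 23 to 47 and COL1A2 12 to 26. Of 8 leukocyte markers, PTPRC and CD3E were at 0 in all 6 libraries and ITGAM had 1 count. The summed level of the 8 was 250 to 291 CPM (counts scaled to library size by TMM, a trimmed mean of ratios between libraries) with inhibitor and 321 to 371 CPM with DMSO, mostly from CD68, a lysosomal protein gene that is not limited to leukocytes. Of 6 epithelial markers, CDH1 was at 0 and EPCAM had 1 count, and the summed level was 281 to 306 CPM with inhibitor and 264 to 356 CPM with DMSO. Nearly all of it came from the keratin genes KRT8, at 168 ± 3.38 and 183 ± 37.6 CPM, and KRT18, at 127 ± 10 and 127 ± 9.2 CPM (SD, n = 3), and CLDN4 was at 1.56 ± 0.365 and 0.724 ± 0.155 CPM. Of 5 endothelial markers VWF was at 0, with sums of 2.58 to 3.59 and 2.82 to 4.5 CPM. In bulk RNA, a change in the share of cells that express a gene cannot be told apart from a change in RNA per cell.

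Most chemokine counts came from CXCL8, CCL5 appeared in the inhibitor libraries, and several neutrophil attractants were at 0 throughout. CXCL8 made up 87.9 ± 0.622% of all counts of the 10 members with inhibitor and 85.4 ± 1.83% with DMSO (mean ± SD, n = 3). CXCL3 followed with 7.83 ± 0.43% and 13.4 ± 2.12%. CCL5 made up 2.49 ± 0.469% with inhibitor and 0.0828 ± 0.0886% with DMSO. The other detected members, CCL20, CXCL10, CCL2 and CXCL5, each stayed at or below 1.23% in every library.

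The filter on low counts kept 4 of the 10 members, CXCL3, CXCL8, CCL5 and CCL20, among 11216 tested genes. The edgeR quasi-likelihood test called 1 of them, CCL5, higher with inhibitor and none lower, at a threshold of 0.05 on the p adjusted by Benjamini-Hochberg. Over all tested genes 1.95% were higher and 1.92% lower. CCL5 reached the filter through the inhibitor libraries alone, so its groups lay on either side of the cut and its call was fixed in part. The count of 1 in 4 is therefore given as a description. Of the 4 tested members 3, CCL5 among them, had an unadjusted p under 0.05, as had 2188 of all 11216 tested genes. By DESeq2 and limma-voom as well, 1 was higher and none lower. The groups did not overlap in CPM for CXCL3, CXCL8 and CCL5, a feature of 25.5% of all tested genes. The median log2 fold change of the 4 was 0.491, beside -0.00438 for all tested genes.

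**Figure D2:**
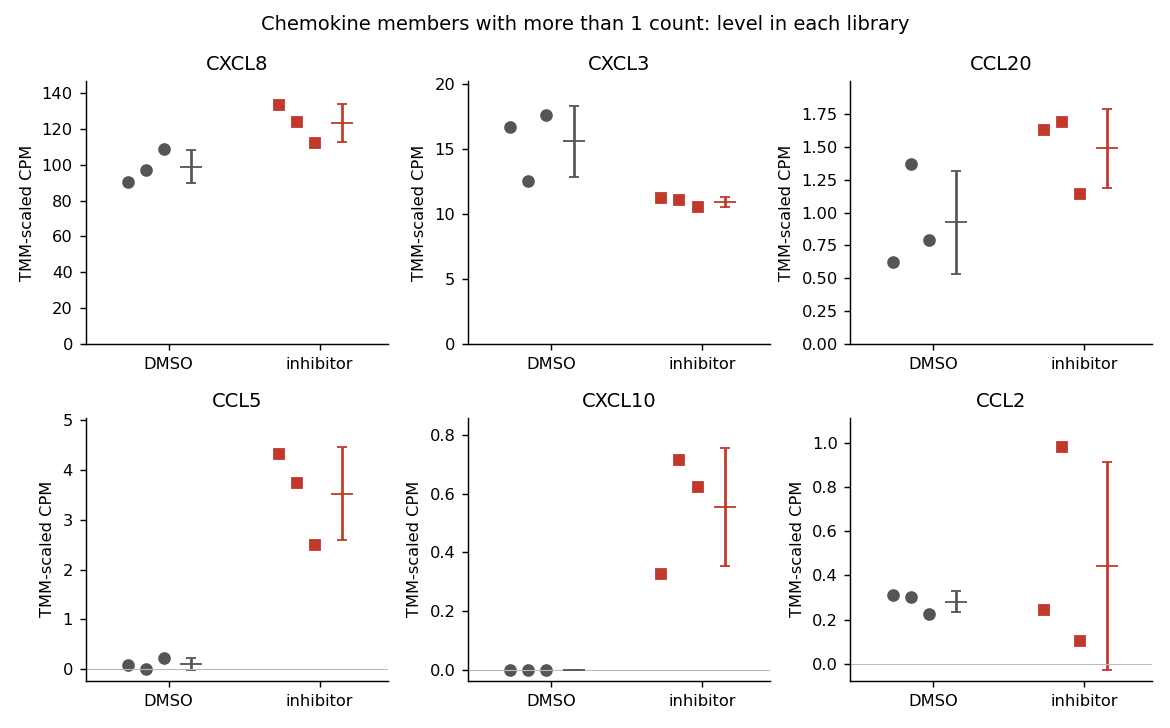
TMM-scaled CPM in each library for the 6 members with more than 1 count, DMSO as circles and inhibitor as squares, with mean and SD bars at the right of each group (n = 3); each panel has its own axis. CCL5 and CXCL10 are at or near 0 in all DMSO libraries, while CXCL8 lies at 112 to 133 CPM with inhibitor and 90.5 to 109 CPM with DMSO.

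CXCL8, the interleukin-8 gene whose product is a potent neutrophil attractant, had 1626, 1393 and 1076 counts in inhibitor 1 to 3 and 1157, 1279 and 968 in DMSO 1 to 3. After scaling, these were 133, 124 and 112 CPM with inhibitor and 90.5, 97.3 and 109 CPM with DMSO. The inhibitor values all lay above the DMSO values, but inhibitor 3 and DMSO 3 were almost level. The log2 fold change was 0.32 (SE 0.126) with an edgeR adjusted p of 0.184, so the difference did not pass the test. Without DMSO 3 the log2 fold change was 0.37 with an edgeR adjusted p of 0.00983. With library quality weights in limma-voom it was 0.35 with an adjusted p of 0.0107. Those settings also call many more genes, with 10.8% and 12.4% of all tested genes higher with inhibitor.

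CXCL3, also named GRO-gamma, had 137, 124 and 101 counts with inhibitor and 213, 164 and 156 with DMSO. The levels were 11.2, 11.1 and 10.5 CPM with inhibitor and 16.7, 12.5 and 17.6 CPM with DMSO. The inhibitor libraries were close together and all below the DMSO libraries, of which DMSO 2 was the lowest. The log2 fold change was -0.50 (SE 0.167) with an edgeR adjusted p of 0.111, which did not pass. Its adjusted p was lowest without DMSO 3, at 0.0505, and it stayed above the threshold in each of the 14 alternative fits.

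CXCL8 and CXCL3 share the GGAATTTCC letters shown above and pointed in opposite directions. A ratio inside 1 library needs no scaling between libraries, so CXCL3 counts were also set against CXCL8 counts. There were 8.43, 8.9 and 9.39 CXCL3 counts per 100 CXCL8 counts in inhibitor 1 to 3 and 18.4, 12.8 and 16.1 in DMSO 1 to 3. The groups did not overlap, and the difference of the mean log2 ratios was -0.81. An exact two-sided permutation test over the 6 libraries gave p = 0.1, the smallest that 3 against 3 allows, or 0.2 adjusted over the 2 ratios computed. The other ratio, CCL20 per 100 CXCL8 counts, was 1.21 ± 0.172 with inhibitor and 0.941 ± 0.404 with DMSO (SD, n = 3; exact permutation p = 0.4, adjusted 0.4). This pair was chosen after the opposite directions were seen, so the ratio describes that pattern and is no separate test of it.

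**Figure D3:**
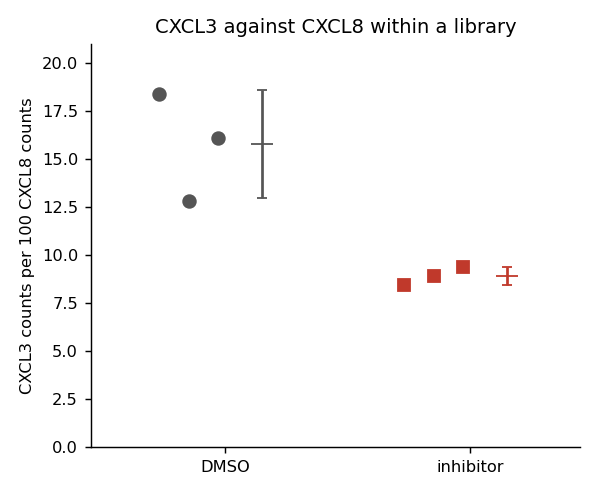
CXCL3 counts per 100 CXCL8 counts in each library, DMSO as circles and inhibitor as squares, with mean and SD at the right of each group (n = 3). The inhibitor libraries lie between 8.43 and 9.39 and the DMSO libraries between 12.8 and 18.4.

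CXCL1, CXCL2 and CXCL6 had 0 counts in all 6 libraries, and CXCL5 had a single count, in inhibitor 2. A count of 0 allows up to 3 counts, or 0.228 to 0.338 CPM per library. In the whole files 5058 of 20683 genes, or 24.5%, were at 0 throughout. No difference was detectable for these 4 members at this depth. CXCL1, CXCL2 and CXCL3 lie near one another on chromosome 4 and have similar messages: the longest transcripts of CXCL1 and CXCL2 were identical at 90.5% of aligned bases, CXCL1 and CXCL3 at 81.7% and CXCL2 and CXCL3 at 83.3%. CXCL5 and CXCL6 were identical at 81.3%. How reads of such close copies were assigned is not stated in the labels, so the split of counts among CXCL1, CXCL2 and CXCL3 is uncertain, and the 0 counts do not show that the messages were absent.

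CCL5, known as RANTES, rose with inhibitor. It had 53, 42 and 24 counts in inhibitor 1 to 3 and 1, 0 and 2 counts in DMSO 1 to 3. These correspond to 4.33, 3.74 and 2.5 CPM against 0.0782, 0 and 0.225 CPM. Every inhibitor library was far above every DMSO library, and inhibitor 3 was the lowest of its group. The fitted log2 fold change was 5.19 (SE 0.548, edgeR adjusted p = 0.000105). With 3 counts in the DMSO group the size of the fold is loosely known: the ratio of scaled counts was 41.7, with an exact 95% interval of 13.9 to 205 that covers counting error only. The log2 fold change ranged from 4.57 without DMSO 2 to 6.17 without DMSO 3 over the 13 alternatives that tested CCL5. The fit with no filter on low counts called CCL5 as well. There its log2 fold change was 5.18 (SE 0.528) with an edgeR adjusted p of 6.27e-20. That p is far smaller than in the reported fit at nearly the same SE. The p-values of the unfiltered fit are therefore not comparable with the reported ones. For that reason the unfiltered fit cannot show whether the reported call of CCL5 depends on the filter.

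CXCL10, a gene first known for its induction by interferon-gamma, had 4, 8 and 6 counts in inhibitor 1 to 3 and 0 in each DMSO library. The levels were 0.327, 0.713 and 0.624 CPM with inhibitor, and inhibitor 1 was the lowest. Against a floor of 3 counts over the DMSO group, CXCL10 was at least 6.31-fold higher with inhibitor. That bound takes the 18 inhibitor counts as exact; with their counting error the exact 95% lower limit of the ratio was 4.63. The gene was below the filter on low counts. In the fit with no such filter it passed with an edgeR adjusted p of 0.00317, and 2.53% of 15625 genes were higher in that fit. As stated for CCL5, p-values of that fit are not comparable with those of the reported fit. CXCL11, a second CXCR3 ligand chosen with its values in view, had 2, 1 and 1 counts with inhibitor and 0 with DMSO. The exact 95% lower limit of its ratio was 0.695, so a difference was not detectable at this depth. CXCL9, the remaining ligand of that receptor, was at 0 in all 6 libraries.

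The 3 genes whose profile over the 6 libraries was most like that of CCL5 were all interferon-stimulated. Likeness was the root mean square difference of log2 CPM after centring each gene, over 9063 genes with a mean of at least 5 CPM. IFI6, which encodes a small interferon-induced membrane protein, was nearest at 0.52, followed by IFIT1, an antiviral RNA-binding protein gene, at 0.807 and IFI44 at 0.86. IFI6 had 472, 386 and 119 CPM in inhibitor 1 to 3 and 28.2, 23.3 and 27.9 CPM in DMSO 1 to 3. IFIT1 had 20.7, 18.3 and 7.07 CPM with inhibitor and 1.72, 2.44 and 3.94 CPM with DMSO. As with CCL5, inhibitor 3 was the lowest inhibitor library for IFI6, IFIT1 and IFI44, but not for CXCL10. The measure favours genes with a large difference between the groups.

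CCL20 had 20, 19 and 11 counts with inhibitor and 8, 18 and 7 with DMSO, or 1.63, 1.69 and 1.14 CPM against 0.626, 1.37 and 0.788 CPM. DMSO 2 lay above inhibitor 3, so the groups overlapped. The log2 fold change was 0.67 (SE 0.375) and did not pass (adjusted p = 0.347 by edgeR), and it was 1.10 without DMSO 2 and 0.39 with library quality weights, which did not pass either. CCL2 had 3, 11 and 1 counts with inhibitor and 4, 4 and 2 with DMSO. The inhibitor counts spanned the DMSO counts, and the ratio of scaled counts was 1.58 with an exact 95% interval of 0.663 to 3.93. A change of CCL2 was not detectable at this depth.

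**Figure D4:**
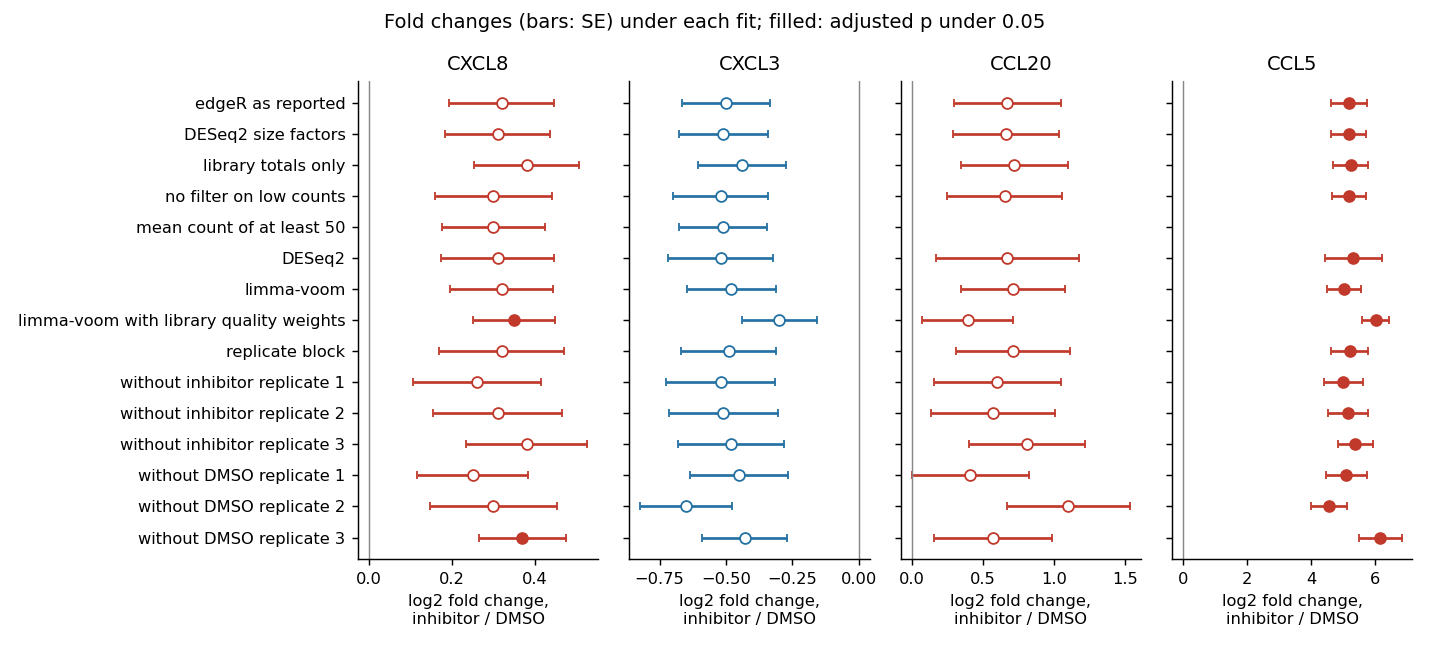
Log2 fold change, inhibitor over DMSO, of the 4 tested members under the reported edgeR fit and 14 alternatives; bars are SE and filled points have an adjusted p under 0.05. CCL5 is filled in every fit that tested it, CXCL8 without DMSO 3 and with library quality weights, and CXCL3 and CCL20 in none.

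Beyond the members, 33 further chemokine ligands were looked up by name, of which 19 were at 0 in every library and none passed the filter. CXCL16, a membrane-anchored ligand, had 9, 7 and 11 counts with inhibitor and 7, 9 and 2 with DMSO, a ratio of 1.58 with an exact 95% interval of 0.838 to 3.04. Of 20 chemokine receptors 14 were at 0 throughout and none was tested. Of the CXCL8 receptors, CXCR1 was at 0 and CXCR2 had 1 count, in DMSO 3. CCR2 and CCR6, receptors of CCL2 and CCL20, were at 0, and CCR1, a receptor of CCL5, had 4 counts with inhibitor and 6 with DMSO. XCL1, CXCR3 and CCR10 were not analysed here. Of 8 tested genes for proteases and surface proteoglycans that cut or hold chemokines, edgeR called none, with 2 of the 8 at p under 0.05 before adjustment, a share near that of all tested genes. DESeq2 called 1 lower, limma-voom called none, and the median log2 fold change was -0.228.

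Among 20 tested genes of NF-kB subunits, kinases and inhibitors, TNFAIP3 rose and none fell by edgeR, with a median log2 fold change of 0.146. DESeq2 called 1 higher and 1 lower, and limma-voom 1 higher and none lower. TNFAIP3 encodes A20, a ubiquitin-editing brake on NF-kB that is itself an NF-kB target. It had 14.7, 11.8 and 16.5 CPM with inhibitor and 8.76, 8.98 and 8.33 CPM with DMSO, a log2 difference of 0.72 (SE 0.17; adjusted p = 0.0326 by edgeR). That call was lost when inhibitor 1, 2 or 3 or DMSO 2 was left out, with adjusted p from 0.0563 to 0.157. NFKBIA, the IkB-alpha gene and another feedback target, was at 29.9 ± 0.713 and 22.7 ± 2.79 CPM (SD, n = 3; edgeR adjusted p = 0.126). Without DMSO 3, 3 genes of this list were higher and 3 lower. In that fit 1227 of all 11386 tested genes were higher and 1269 lower.

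Of 8 tested cytokine genes that share NF-kB control with the CXC ligands, 3 fell and none rose, with a median log2 fold change of -0.0755. TSLP, an alarmin gene, had 2, 1 and 3 counts with inhibitor and 17, 13 and 12 with DMSO, a ratio of 0.15 with an exact 95% interval of 0.0522 to 0.355. It passed the filter through the DMSO libraries alone, so its call was fixed in part by the filter, and the other 2 fallers passed through both groups. IL1A, which encodes an activator of the interleukin-1 receptor upstream of IRAK4, had 3.84, 4.72 and 3.64 CPM with inhibitor and 8.13, 7.99 and 11.6 CPM with DMSO (log2 fold change -1.16, SE 0.211; adjusted p = 0.00701 by edgeR). LIF, an interleukin-6 family cytokine gene, was at 36.1 ± 4.96 and 63 ± 8.39 CPM (log2 fold change -0.80, SE 0.147). IL6 did not pass, at 5.08 ± 0.814 and 3.11 ± 0.226 CPM (log2 fold change 0.71, SE 0.215, edgeR adjusted p = 0.0845). This list kept 1 lower gene whichever inhibitor library was left out. Leaving out DMSO 3 gave 3 higher and 4 lower genes of the list. That fit called 1227 of all 11386 tested genes higher and 1269 lower.

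Of 16 tested interferon-stimulated genes, 13 rose and none fell, with a median log2 fold change of 2.02. Over all tested genes 1.95% were higher. The number of the list that rose was 9 without inhibitor 1 or without inhibitor 2, and 11 to 14 without any other 1 library. Of the 13, OAS2 and RSAD2 passed the filter through the inhibitor libraries alone, which fixed their calls in part, and the other 11 passed through both groups. This list was drawn up with earlier results of these samples known and is not independent evidence of its direction. OAS2, an oligoadenylate synthetase gene, was at 8.58, 6.69 and 1.77 CPM with inhibitor and 0.235, 0.228 and 0.563 CPM with DMSO. RSAD2, the viperin gene, was at 4, 4.19 and 1.04 CPM against 0.235, 0 and 0.45 CPM, and missed the threshold without inhibitor 2 (edgeR adjusted p = 0.0511). Of 21 tested interferon regulators 1 rose and none fell, with a median of 0.107. The riser was IRF9, the DNA-binding subunit of the ISGF3 complex, at 15.8, 21.4 and 12.7 CPM with inhibitor and 8.92, 10.8 and 9.57 CPM with DMSO (log2 fold change 0.77, SE 0.194, edgeR adjusted p = 0.0412). It was not called by limma-voom (adjusted p = 0.05) or without inhibitor 1, inhibitor 2, DMSO 1 or DMSO 2, at 0.0716 to 0.271. IRF1, which can act on the CXCL10 and CCL5 promoters, was at 10.9 ± 1.14 and 10.9 ± 0.541 CPM (edgeR adjusted p = 0.998). IFNB1, the interferon-beta gene, had 1 count, in DMSO 2. Without DMSO 3, 6 interferon regulators were higher, in a fit where 10.8% of all tested genes were higher.

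Factors that act on the CXCL8 promoter or on AU-rich messages changed in part. Of 11 tested AP-1 and C/EBP genes 3 fell and none rose, with a median log2 fold change of -0.227. ATF3, a stress-induced repressor and activator of the AP-1 family, was at 3.5 ± 0.529 and 17.2 ± 1.55 CPM (log2 fold change -2.29, SE 0.182, edgeR adjusted p = 1.48e-05). CEBPG was at 7.8 ± 1.73 and 16.6 ± 2.71 CPM, and CEBPB, whose product binds the CXCL8 promoter, at 4.44 ± 0.427 and 8.86 ± 1.46 CPM. CEBPB was not called without inhibitor 1, 2 or 3 (edgeR adjusted p from 0.0559 to 0.0714), nor CEBPG without inhibitor 2 (0.063). Without inhibitor 2 the number of lower genes was 1, and without DMSO 3 it was 6, with 1 higher. Over all 11386 genes tested without DMSO 3, 1269 were lower and 1227 higher.

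Of 14 tested regulators of AU-rich messages 2 fell and none rose, with a median of 0.122. ZFP36L1, which promotes decay of such messages, was at 129, 130 and 120 CPM with inhibitor and 315, 294 and 201 CPM with DMSO (log2 fold change -1.09, SE 0.155, edgeR adjusted p = 0.00137). DUSP1, a phosphatase that switches off the MAP kinases which stabilise them, was at 122 ± 5.44 and 192 ± 32.4 CPM (log2 fold change -0.65, SE 0.135, edgeR adjusted p = 0.0159). The call of DUSP1 was lost whichever inhibitor library was left out. Leaving out DMSO 3 gave 2 higher genes of this list, in a fit where 10.8% of all tested genes were higher. Whether any of these genes took part in the differences of CXCL3, CXCL8 or CCL5 was not tested.

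**Figure D5:**
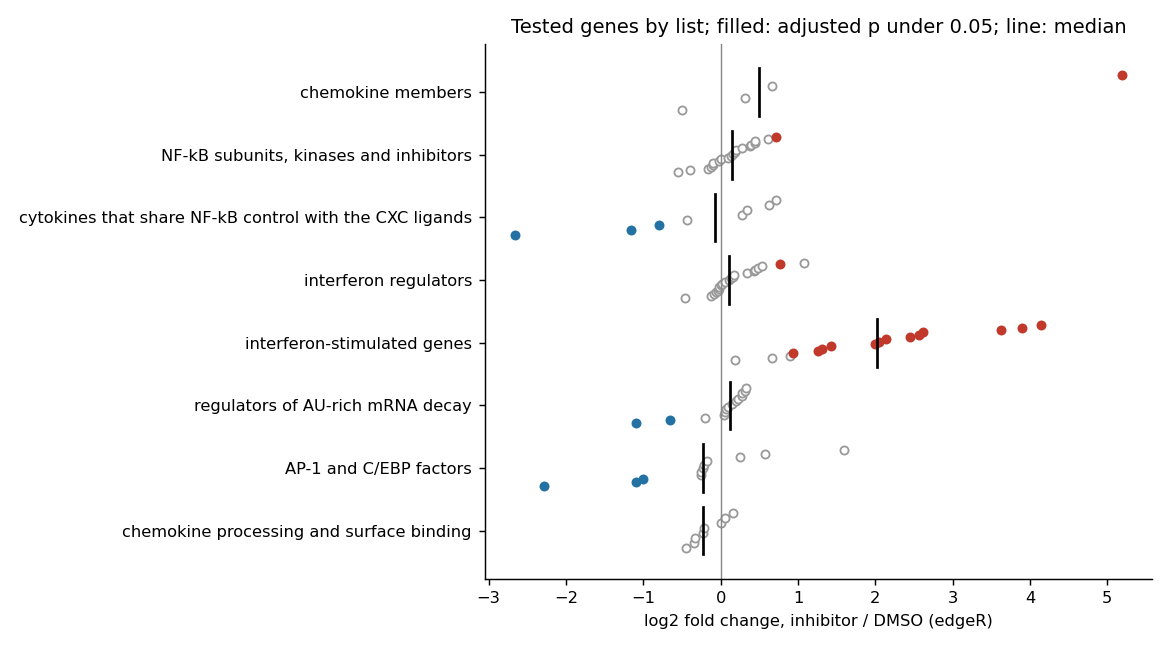
Log2 fold change, inhibitor over DMSO, of each tested gene by list (edgeR); filled points have an adjusted p under 0.05 and the black line is the list's median. The estimate for CCL5, 5.19, lies beyond that of every tested gene of the interferon-stimulated list. It rests on 3 DMSO counts and its size is loosely known, so this rank is uncertain. CXCL8, CXCL3 and CCL20 lie within the range of the NF-kB and cytokine lists.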

How the data were processed

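RNA of HT-1080 cells was read through the Ion AmpliSeq Transcriptome Human Gene Expression Panel with Ion Torrent Proton sequencing, per the labels' protocols and the design text. The authors deposited raw counts per gene symbol, 1 file per library, without normalization. HTSeq, DESeq2 1.20.0 and hg19 are named in the submitters' processing notes without their role. The aligner was not given in the sources used here. No molecular identifiers are named, so intervals and floors cover counting error only. Promoter and transcript sequences come from RefSeq and GENCODE on GRCh38, another build than that of the files, and were matched by symbol.

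Counts were filtered with filterByExpr (minimum count 10, minimum total 15), scaled by TMM and tested across 11216 genes with the quasi-likelihood test of edgeR 4.0.16 (R 4.3.3) on the group, at a threshold of 0.05 after Benjamini-Hochberg adjustment. Each edgeR SE is the size of the log2 fold change over the square root of F. Log2 CPM used a prior count of 2. Where a group summed to 25 counts or fewer, ratios have exact 95% conditional intervals. Alternatives used DESeq2 1.42.0, limma 3.58.1, other scaling and filters, a replicate block and removal of each library. The fits were tested on simulated data. Replicate numbers come from the titles. Every member was named, with up to 3 called genes per direction of each other list and the regulators and receptors that bear on a member; exceptions are marked as chosen with their values in view, and a few genes the rule would name are not reported here. Members, lists and tests were chosen with earlier results of these data known.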

Additional observations from a re-analysis of the deposited data

How the results depend on the processing

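The number of members higher with inhibitor was 1 in the reported fit. It was 2 with no filter on low counts, where CXCL10 was added, 2 with library quality weights in limma-voom, where CXCL8 was added, and 0 with a mean count of at least 50, where CCL5 was not tested. Leaving out 1 library in turn gave 1 to 2, and the 2 came without DMSO 3, where CXCL8 was added. No member was lower in any of the 14 alternatives. With a replicate block the counts of members were 1 higher and 0 lower, as without it; deviations of libraries with the same number correlated at -0.0414, -0.0378 and -0.0882, so the numbers were not taken to pair the libraries, and no library correlated best with its own number. Over all genes, 219 were higher and 215 lower; these counts were 38 to 1227 and 61 to 1269 when 1 library was left out, highest without DMSO 3, 395 and 436 with no filter, 1387 and 1219 with library quality weights, and 336 higher with library totals only. Of 288 values of 21 genes under the alternatives, 250 kept their direction and side of the threshold, 23 lost the call, 10 gained it and 5 changed sign. The 5 were all IRF1, at -0.00 in the reported fit, 0.06 with library totals only, 0.04 with library quality weights and -0.09 to 0.06 when 1 library was left out. The causes were not tested. CXCL1, CXCL2, CXCL5, CXCL6, CCL2 and CXCL10 each had at most 11 counts in a library, which limits what can be said of them. Whether depth, the yield of the panel's products or the assignment of reads kept CXCL1, CXCL2 and CXCL6 at 0 was not tested.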

Other observations

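Among genes of the other lists that were below the filter, CXCL11, described above, and 3 more had over 3 counts with inhibitor and 0 with DMSO; they were chosen after their values were seen. Their lower limits are those of exact 95% intervals of the ratio of scaled counts, which cover counting error only. The rule admitted only genes counted with inhibitor alone, so no gene lower with inhibitor was eligible. The limits describe these picked genes and are no test of a rise in any of them. CSF3, which encodes the granulocyte growth factor G-CSF and is induced together with CXCL8 in many cells, had 9, 2 and 4 counts in inhibitor 1 to 3, with a lower limit of 3.77. IFI44L, an interferon-stimulated gene, had 1, 5 and 0 counts, with a lower limit of 1.24. CXCR4, the CXCL12 receptor gene, had 3, 0 and 2 counts, with a lower limit of 0.964. In IFI44L and CXCR4 1 inhibitor library was at 0, as were all DMSO libraries.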
